A study of Homo sapiens with 11 samples.

Results

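The HOX gene clusters were described through 38 member genes of 20033 protein-coding genes in the RefSeq annotation used: 10 in HOXA on chromosome 7, 10 in HOXB on chromosome 17, 9 in HOXC on chromosome 12 and 9 in HOXD on chromosome 2. Each member was assigned the peaks whose summit lay in its GRCh38 gene span extended by 5 kb on each side. These windows overlap for 35 of the 38 members, so a peak often counts for several neighbours.

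The data were ChIP-seq peak lists from 2 human pancreatic cancer cell lines of ductal type, CFPAC1 and HPAF2, with 2 libraries in each of 5 groups. The histone mark H3K27ac was mapped in a CFPAC1 clone that carries lentiCRISPRv2 with wt Cas9 and a guide against MYRF (MYRF KO clone), and in a CFPAC1 clone infected with the same vector for which no guide is given (control clone). FOS was mapped in the control clone. MYRF was mapped with an antibody made by the submitters in the original, uncloned CFPAC1 and HPAF2 lines. CFPAC1 was grown in IMDM and HPAF2 in RPMI. Each genotype was 1 clone, so clone and MYRF status cannot be told apart, and peak lists do not show whether MYRF was disrupted. The labels do not say that the 2 libraries of a group came from separate cultures, so p-values measure only the spread between these libraries.

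HOX genes encode homeodomain transcription factors that give cells their position along the body axis. Within a cluster they lie in the order of their paralog groups, and in the embryo the group 1 end opens first and the group 13 end last. Polycomb complexes keep unused HOX genes silent by methylating lysine 27 of histone H3, the residue whose acetylation marks active promoters and enhancers. MYRF is a membrane-anchored transcription factor that cuts itself free to enter the nucleus, best known from myelinating cells, and FOS pairs with JUN proteins to form AP-1.

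The H3K27ac lists held 107586 and 110498 peaks covering 87.9 and 92.9 Mb in the KO clone, against 116466 and 109352 peaks covering 101 and 95.2 Mb in the control clone. FOS lists held 29087 and 36349 peaks, and MYRF lists between 3702 and 4743. Read counts are not part of the lists. Depth is therefore unknown, and the absence of a peak says only that none was listed. All 7 ductal epithelial markers had H3K27ac peaks, with a median of 42.6% of the gene window covered, against 3.61% for 4 leukocyte, 0.399% for 4 fibroblast and 0% for 3 neuroendocrine markers, of which CHGA and INSM1 had no peak. The third, SYP, had 4191 and 3747 covered bp in KO libraries against 3683 and 3653 bp in control libraries, 17.1% of its window on average. The median for 3 endothelial markers was 9.41%. All leukocyte and endothelial markers also had a peak in at least 1 library. Mean cover was 15.2% for PECAM1 and 12.4% for CD3E, against 12.6% for the ductal marker EPCAM.

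HOXA and HOXB were broadly acetylated in both clones, whereas HOXC and HOXD carried only short islands. H3K27ac peaks covered 30.7% and 28.1% of the 99.7 kb HOXA span in the KO libraries, against 29.9% and 29.8% in the control libraries. For the 200 kb HOXB span the values were 17.1% and 22.3% in KO libraries and 19.2% and 18.4% in control libraries. In the 117 kb HOXC span the KO libraries had 3.15% and 3.18% and the control libraries 2.2% and 2.93%. In the 103 kb HOXD span the KO libraries had 5.81% and 3.36% and the control libraries 5.84% and 4.07%. Every HOXA and HOXB library value lay above every HOXC and HOXD value, and the clones overlapped in HOXA, HOXB and HOXD but not in HOXC.

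The difference between the KO clone and the control clone was -0.45 percentage points for HOXA, 0.96 for HOXB, 0.60 for HOXC and -0.37 for HOXD. In two-sided exact permutation tests over 2 against 2 libraries, p was 1, 1, 0.333 and 0.667 in that order, and 1 for each after Benjamini-Hochberg adjustment over the 4 clusters. The smallest p this design allows is 0.333. Without KO replicate 2 the sign turned for HOXA (0.81), HOXB (-1.65) and HOXD (0.86), and without control replicate 1 it turned for HOXD (0.52). HOXC stayed positive, between 0.24 and 0.96, whichever library was left out.

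**Figure D1:**
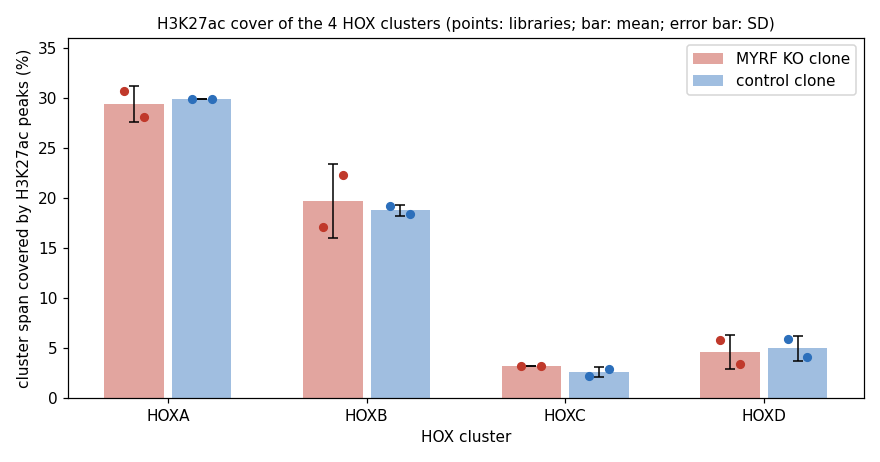
Share of each cluster span covered by H3K27ac peaks (percent, linear axis from 0), for the MYRF KO clone left of the control clone; points are the 2 libraries, bars their mean and error bars the SD. HOXA and HOXB stand at 17.1% to 30.7% and HOXC and HOXD at 2.2% to 5.84%.

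Of the 38 members, 26 had an H3K27ac summit in their window in both KO libraries and 26 in both control libraries, where the shares over all protein-coding genes were 73.3% and 73.5%. Both conditions held for 25 members. HOXB5 met the rule in the KO clone alone and HOXD1 in the control clone alone. The rule counts summits: the HOXB5 window had 4439 covered bp in control replicate 2, though no summit fell inside it there. The 7 members with no H3K27ac peak in any library were HOXB13, HOXC8, HOXC12, HOXC13, HOXD8, HOXD9 and HOXD10. The median member window was 7.67% covered over the 4 libraries, against 4.23% over all protein-coding genes. By cluster the median was 24.3% for HOXA, 29.4% for HOXB, 1.34% for HOXC and 4.50% for HOXD.

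**Figure D2:**
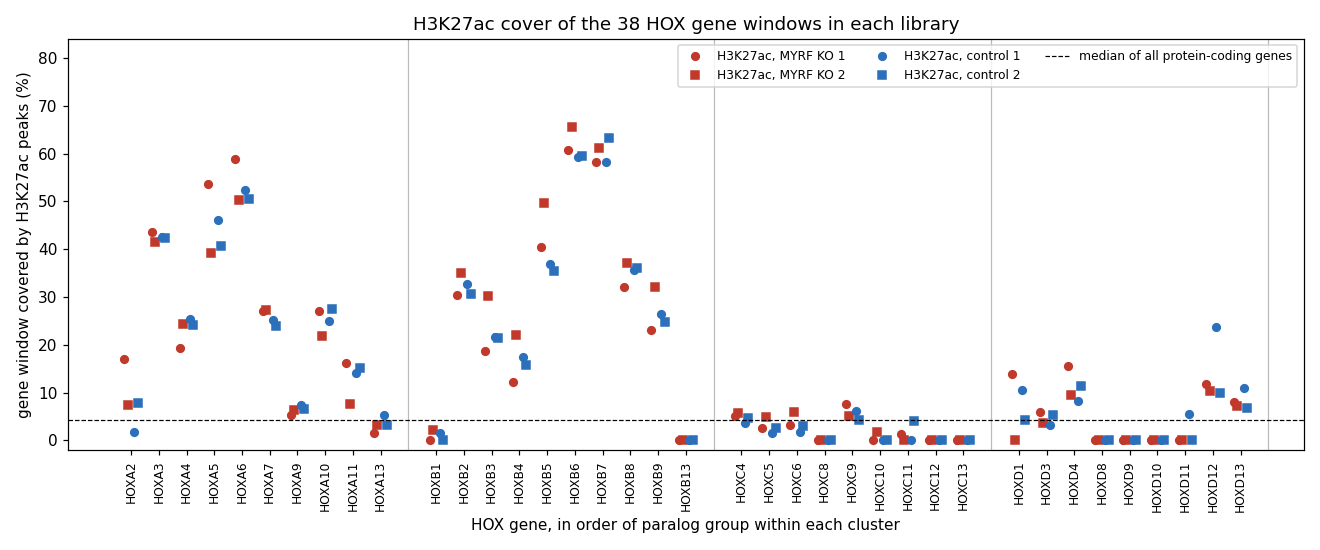
Share of each HOX gene window covered by H3K27ac peaks (percent, linear) in the 4 libraries; red marks the MYRF KO clone, to the left of the blue control clone, and the dashed line is the median of all protein-coding genes (4.23%). HOXB6, HOXB7 and HOXA6 exceed 50% in every library, and 7 genes stand at 0 in all 4.

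The HOX start sites used here seldom lay near an H3K27ac peak. A single start was used per gene, so any other start of a gene was not counted. A start site was known for 20 members, and 5 of these had an H3K27ac peak within 1 kb in all 4 libraries (HOXA6, HOXA10, HOXA11, HOXA13 and HOXD4). The share over 15842 genes with a known start was 61.7%. HOXA13, with its start at chr7:27200091, was counted narrowly. In KO replicate 1 its peak began at chr7:27201088, at the edge of the 1 kb limit. No library had a peak within 1 kb of 14 starts, against 32.9% of all genes, and HOXD1 had one in 3 libraries. The 14 included HOXA3, whose window was among the most acetylated. A region acetylated in all 4 libraries ended at chr7:27151514, just beyond 1 kb from the HOXA3 start at chr7:27152583. The 14 also included HOXD3, with the start taken at chr2:176157307. The HOXD3 span begins at chr2:176152529, inside a region acetylated in all 4 libraries. HOXC4 and HOXC5 share 1 start. Only 1 of the 10 HOXB members has a known start here, so these counts describe mainly HOXA and HOXD.

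In HOXA, acetylation was concentrated within the span of HOXA3, a gene with known roles in the pharyngeal arches and the thymus. That span is 45574 bp long in the annotation used and contains HOXA4, HOXA5 and HOXA6. The longest stretch covered in every library of a clone, joined over gaps of up to 2 kb, ran for 13.3 kb in the KO clone and 13.5 kb in the control clone. It lay at chr7:27110572-27123849 in the KO clone and chr7:27110360-27123899 in the control clone, inside the HOXA3 span and across the antisense gene HOXA-AS2. The strongest peak there stood at percentile 99.1 and 99.5 of all peaks of its own list in the KO libraries, and 98.6 and 97.9 in the control libraries. HOXA3 had 24271 and 23011 covered bp in the KO clone against 23606 and 23559 in the control clone, ranges that overlap. These values also count the peaks over HOXA5 and HOXA6.

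A second block ran through the middle of the cluster. Stretches of 4.74 kb in the KO clone and 4.91 kb in the control clone began at chr7:27133726 and chr7:27133250, still inside the long HOXA3 span, and a stretch of 1.57 kb in the KO clone and 1.95 kb in the control clone lay over HOXA5, a gene needed for lung development in mice. HOXA5 had 6767 and 4962 covered bp in KO libraries, against 5834 and 5130 in control libraries. The next stretch, 4.82 kb in the KO clone and 4.41 kb in the control clone, covered the start of HOXA6. HOXA6, a group 6 factor, had 7292 and 6221 covered bp in KO libraries and 6482 and 6250 in control libraries, so the clones overlapped at both genes. Its strongest peak stood at percentile 93.8 and 95.0 in KO libraries, against 90.3 and 94.3 in control libraries.

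HOXA7 borders this block and had more covered bp in both KO libraries (3504 and 3529) than in both control libraries (3250 and 3096). HOXA9, known for its role in blood stem cells and leukaemia, had fewer in the KO clone, 705 and 843 bp against 969 and 853 bp, with 10 bp between the nearest libraries. HOXA4, which lies inside the HOXA3 span, had 19.3% and 24.4% of its window covered in KO libraries and 25.3% and 24.2% in control libraries.

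Toward the group 13 end, stretches of 3.15 kb in the KO clone and 3.08 kb in the control clone lay in HOXA10, and shorter ones over the start of HOXA10 (0.762 kb against 0.974 kb) and over HOXA11 (0.234 kb against 0.944 kb). Both genes are needed for the development of the uterus. HOXA10 had 5213 and 4197 covered bp in KO libraries and 4807 and 5282 bp in control libraries. HOXA11 had 2284 and 1082 covered bp in KO libraries and 1981 and 2125 bp in control libraries, so its lower KO mean rests on KO replicate 2. HOXA13, a limb and urogenital patterning gene, had 229 and 500 covered bp in the KO clone against 838 and 509 bp in the control clone, with 9 bp between the nearest libraries. The stretch in the control clone just past the HOXA13 start, 0.621 kb inside the long noncoding RNA gene HOTTIP, had peaks of fold enrichment 7.53 and 5.97 over the local background of their lists. In the KO libraries it had no peak in replicate 1 and a peak of 2.57 in replicate 2.

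Stretches of DNA just before the start are shown for the HOX genes whose promoter touched an H3K27ac peak, to set 2 that did so in all 4 libraries beside 2 that did so in fewer. Each run is the 250 bases before the start, from RefSeq on GRCh38.p14, written 5′ to 3′ on the gene's strand, and capitals mark a match to the MYRF core motif.
HOXA6 (chr7:27147775-27148024, minus strand): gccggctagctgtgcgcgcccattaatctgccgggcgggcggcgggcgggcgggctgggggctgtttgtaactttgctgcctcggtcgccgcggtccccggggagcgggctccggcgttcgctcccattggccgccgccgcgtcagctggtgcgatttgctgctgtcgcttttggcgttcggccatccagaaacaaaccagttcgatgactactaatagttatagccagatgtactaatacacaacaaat
HOXA10 (chr7:27179862-27180111, minus strand): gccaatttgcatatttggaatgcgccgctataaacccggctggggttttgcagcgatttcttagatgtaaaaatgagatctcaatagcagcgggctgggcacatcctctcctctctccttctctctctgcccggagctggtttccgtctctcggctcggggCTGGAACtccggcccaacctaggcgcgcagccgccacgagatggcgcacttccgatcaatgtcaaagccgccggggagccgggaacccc
HOXA13 (chr7:27200092-27200341, minus strand): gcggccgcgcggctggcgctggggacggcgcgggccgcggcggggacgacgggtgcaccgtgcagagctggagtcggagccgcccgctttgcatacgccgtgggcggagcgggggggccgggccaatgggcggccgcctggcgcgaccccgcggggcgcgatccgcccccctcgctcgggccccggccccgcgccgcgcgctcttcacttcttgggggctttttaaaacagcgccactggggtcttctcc
HOXD4 (chr2:176151300-176151549, plus strand): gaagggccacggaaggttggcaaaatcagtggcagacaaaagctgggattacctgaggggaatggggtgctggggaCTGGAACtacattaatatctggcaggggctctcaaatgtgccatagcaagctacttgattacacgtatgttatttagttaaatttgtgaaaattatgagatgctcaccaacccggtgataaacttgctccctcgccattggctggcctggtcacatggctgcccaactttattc
The HOXA6 and HOXA10 promoters overlapped H3K27ac peaks in all 4 libraries. HOXA13 overlapped one in neither KO library and both control libraries. HOXD4 overlapped one in KO replicate 2 and control replicate 2, and HOXD1, not printed, in KO replicate 1 and control replicate 1. No FOS or MYRF peak overlapped any of the 20 member promoters.

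Motifs were searched on both strands of these promoters. The MYRF core was written CTGGNAC, with reverse complement GTNCCAG, where N is any base, and the AP-1 motif was written TGANTCA, which is its own reverse complement. The 2 motifs cannot share a match. The MYRF core occurred in 2 of 20 member promoters, at -89 in HOXA10 and -174 in HOXD4 counted from the start, and in 15.3% of all 15842 promoters. The AP-1 motif occurred in 0 of 20 member promoters and 5.04% of all. These are matches of letters and not binding sites.

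**Figure D3:**
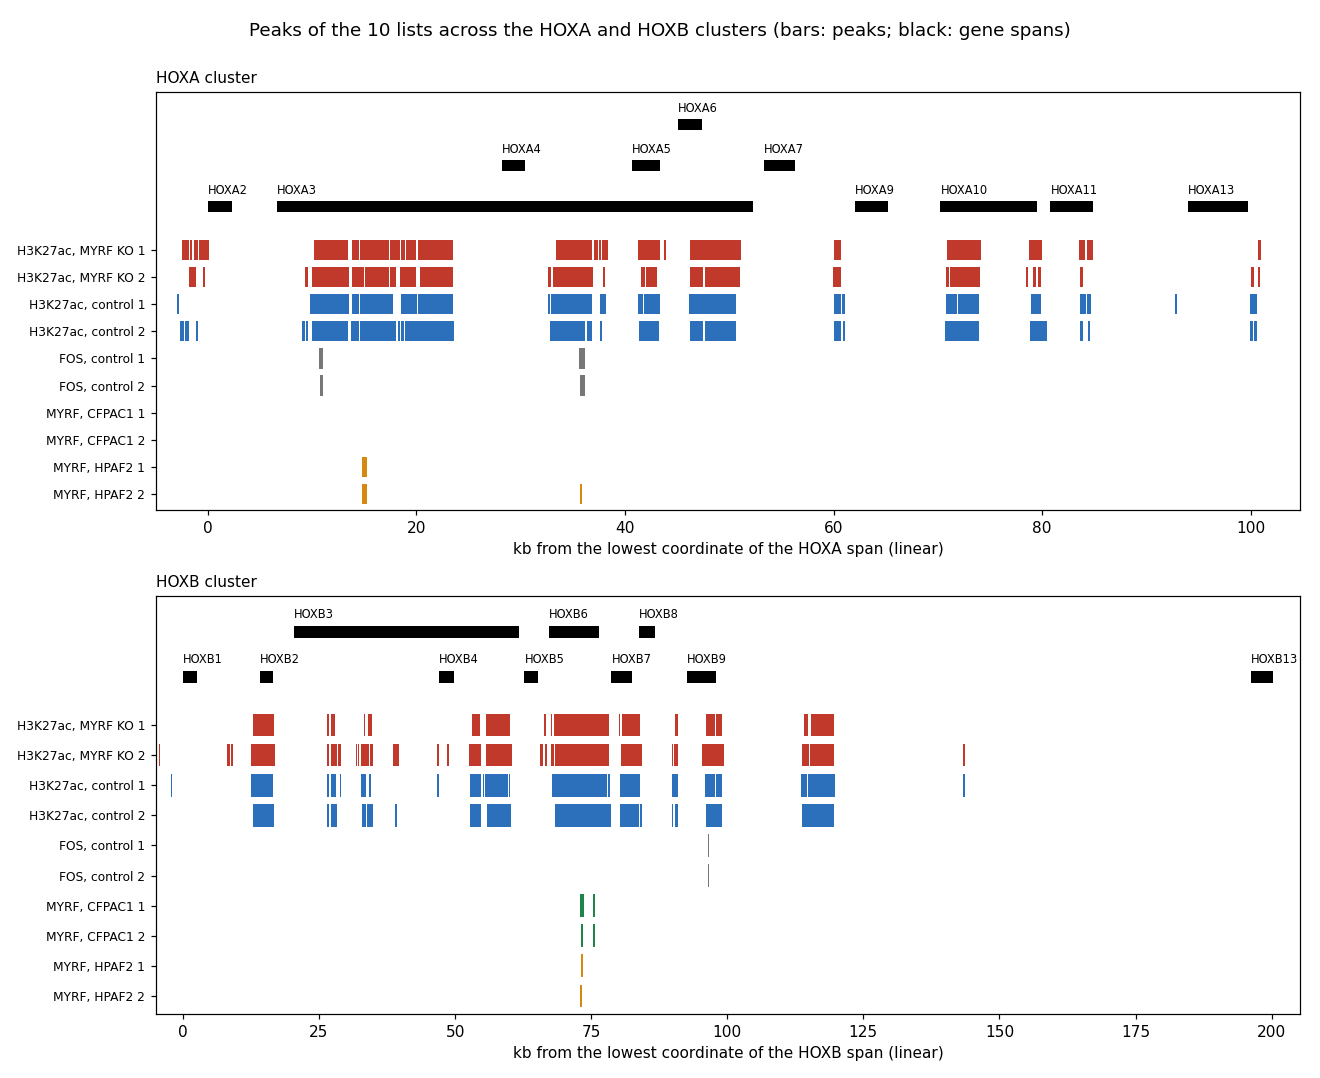
Peaks of the 10 lists (coloured bars, 1 row per library, KO above control) along HOXA and HOXB in kb from the lowest coordinate of each span (linear), with member gene spans in black. The H3K27ac rows share their blocks between clones. Within the spans drawn, which reach 5 kb past each cluster, MYRF in CFPAC1 appears only inside HOXB6, and the right part of HOXB up to HOXB13 holds almost no peaks.

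In HOXB the acetylated blocks ran from HOXB2 to HOXB9, and HOXB6 and HOXB7 had the highest covered shares of the 38 members (61.2% and 60.2%, means of 4 libraries). A 3.80 kb stretch in the KO clone and a 3.71 kb stretch in the control clone lay over HOXB2, a hindbrain patterning gene, with 3800 and 4371 covered bp in KO libraries and 4068 and 3809 bp in control libraries. A stretch of 7.15 kb in the KO clone and 7.31 kb in the control clone lay in the part of the HOXB3 span that also holds HOXBLINC. HOXB4, known for expanding blood stem cells when overexpressed, had 1570 and 2836 covered bp in KO libraries and 2252 and 2011 in control libraries. HOXB1 had 0 and 280 bp in KO libraries and 200 and 0 bp in control libraries.

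The HOXB6 stretch reached 11.8 kb in the KO clone at chr17:48594948-48606790. In the control clone one stretch of 15.5 kb at chr17:48596846-48612342 took in HOXB6 and HOXB7, which in the KO clone were separate stretches of 11.8 kb and 3.27 kb. The gap between them exceeded the 2 kb joining limit only in the KO clone. HOXB6 had 11675 and 12593 covered bp in KO libraries against 11387 and 11455 in control libraries. HOXB5, a gene of the enteric nervous system, had 5061 and 6231 bp in KO libraries against 4628 and 4439 in control libraries. Both genes were higher in both KO libraries, and their windows overlap.

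HOXB7, often studied in carcinomas, had 8027 and 8423 covered bp in KO libraries and 8036 and 8713 in control libraries. The strongest peak it shares with HOXB8 stood at percentile 99.6 and 98.8 of its list in the KO libraries, against 96.4 and 96.3 in the control libraries. HOXB8 had 4155 and 4816 bp in KO libraries and 4602 and 4665 bp in control libraries, and HOXB9 3512 and 4865 bp in KO libraries and 4031 and 3748 bp in control libraries. HOXB3 had 9637 and 15531 bp in KO libraries and 11056 and 11024 bp in control libraries. At HOXB3, HOXB8 and HOXB9 the KO libraries lay on either side of the control libraries. KO replicate 2 was the higher KO library at each of the 9 HOXB members with a peak.

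One of the strongest HOXB blocks lay outside every member span. It ran for 5.41 kb in the KO clone and 5.80 kb in the control clone between HOXB9 and HOXB13, across the long noncoding RNA genes LINC02086 and LINC03057 (chr17:48642650-48648056 in the KO clone). Its strongest peak stood at percentile 98.6 and 98.3 in KO libraries and 95.6 and 99.1 in control libraries. Beyond it the cluster was almost empty, and the last 56.5 kb, up to and including HOXB13, had no H3K27ac peak in any library. HOXB13 is the HOX gene best known from the prostate.

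**Figure D4:**
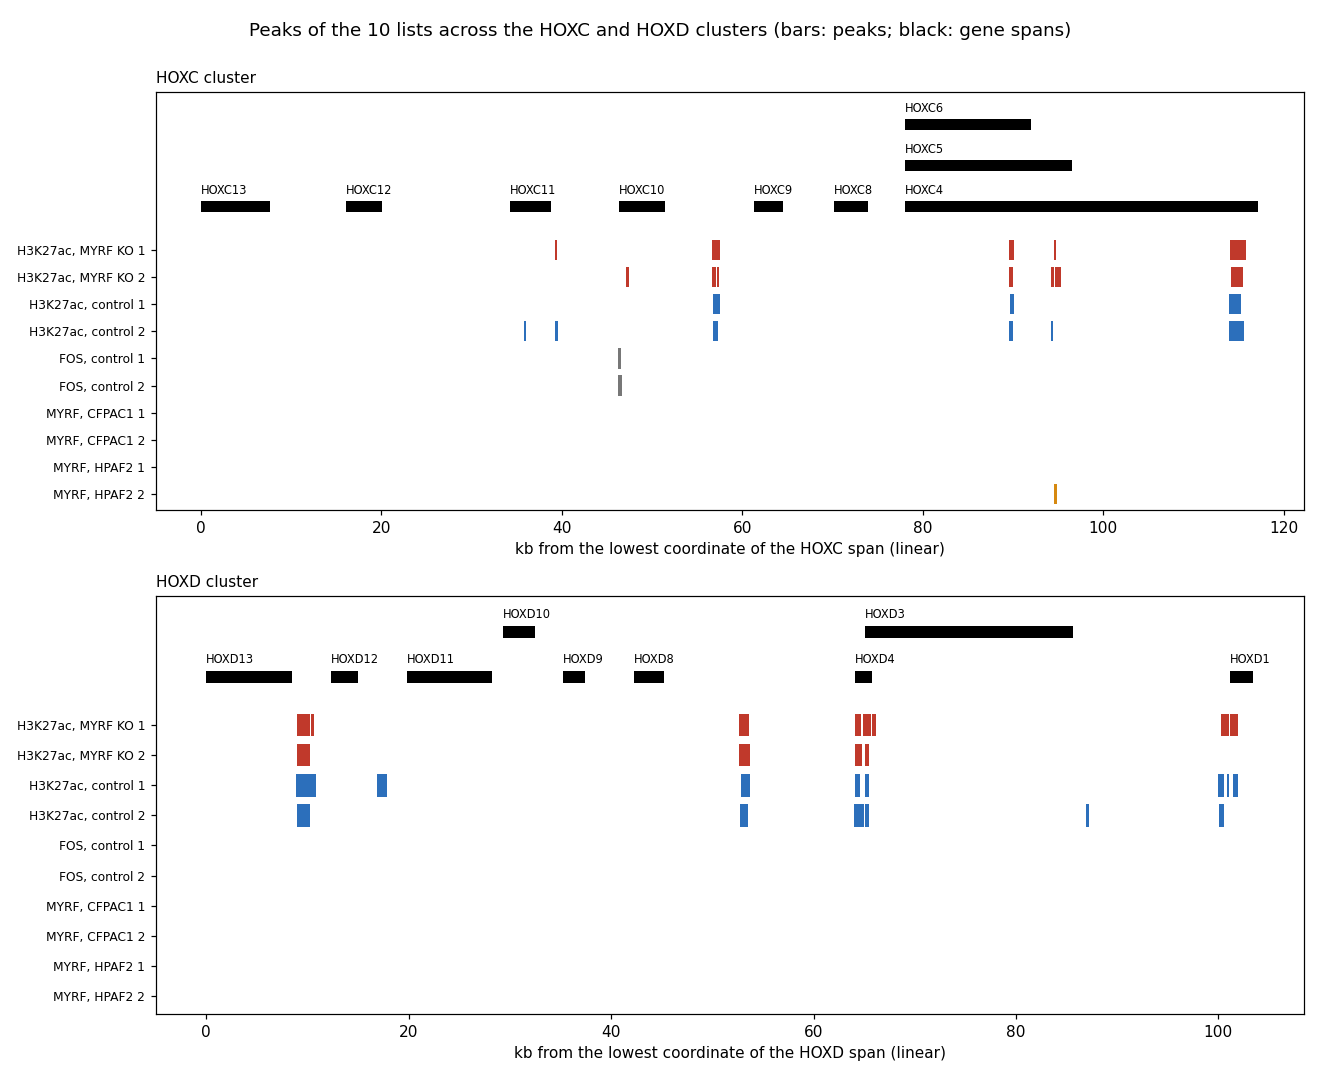
The same map for HOXC and HOXD, in kb from the lowest coordinate of each span (linear), KO rows above control rows. H3K27ac appears as isolated short peaks, and runs of 35.8 kb in HOXC and 34.8 kb in HOXD hold none.

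In HOXC, 3 islands were present in every library, and the part shared by both libraries of a clone was never over 1.39 kb. One lay in HOXC-AS2 before HOXC9, one within the overlapping spans of HOXC4, HOXC5 and HOXC6, and one in HOXC4 alone. The HOXC4 island was the longest, with a shared part of 1.39 kb in the KO clone and 1.35 kb in the control clone. Its peaks merged over the 4 libraries spanned 1834 bp. HOXC13, a gene of hair and nail formation, and HOXC12 lay in a run of 35.8 kb with no peak, and HOXC8 in a run of 32.0 kb.

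HOXC4, HOXC5 and HOXC6 were each more covered in both KO libraries. HOXC4 had 2491 and 2790 bp in KO libraries against 1783 and 2302 bp in control libraries. HOXC5 and HOXC6 shared their peaks, with 747 and 1401 bp in KO libraries against 429 and 726 bp in control libraries, so the 3 genes are not separate observations. HOXC11 had 200 and 0 bp in KO libraries and 0 and 579 bp in control libraries. HOXC9, which patterns thoracic motor neurons, had 996 and 677 bp in KO libraries and 797 and 548 bp in control libraries. HOXC10 had 258 bp in KO replicate 2 and none in the other 3 libraries.

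In HOXD, 3 islands were present in every library. One lay between HOXD13 and HOXD12, genes of digit formation, one in the uncharacterised gene LOC401021 between HOXD8 and HOXD4, and one across HOXD4 and the HOXD3 span. HOXD13 had 1484 and 1306 covered bp in KO libraries and 2002 and 1266 bp in control libraries. HOXD12 had 1484 and 1306 bp in KO libraries and 3002 and 1266 bp in control libraries, and HOXD11 0 and 0 bp in KO libraries and 1000 and 0 bp in control libraries. The lower KO means of these 3 neighbours rest on control replicate 1. HOXD4 had 1822 and 1095 bp in KO libraries and 958 and 1331 bp in control libraries. HOXD3 had 1822 and 1095 bp in KO libraries and 958 and 1623 bp in control libraries, so both neighbours overlapped between the clones. HOXD1 had 1692 and 0 bp in KO libraries and 1277 and 521 bp in control libraries, with a 0.504 kb stretch in the antisense gene HAGLR in the control clone alone. A run of 34.8 kb from HOXD11 to HOXD8 had no H3K27ac peak.

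Of the 31 members with an H3K27ac peak, 6 had more covered bp in both KO libraries than in both control libraries (HOXA7, HOXB5, HOXB6, HOXC4, HOXC5 and HOXC6), where 11.3% of 15800 protein-coding genes did. Another 2 had fewer in both (HOXA9 and HOXA13), where 23.5% of all genes did, and 23 overlapped. The median difference, KO minus control, was 20 bp over the members and 0 bp over all genes. No test was made of these counts, because neighbouring windows share peaks.

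The 4 H3K27ac lists together gave 66 merged regions with a summit in a member window, of which 27 were in all 4 libraries. Only 1 was lost, meaning present in neither KO and both control libraries, against 3.51% of 134465 regions over the genome. A further 4 were gained, meaning present in both KO and neither control library, against 1.7% over the genome. The other 34 were mixed, and 21 of the 66 were in a single library, 9 of them in KO replicate 2. None of the 5 changed regions lay above percentile 67.0 of its own list.

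The lost region, 295 bp at chr7:27161198-27161492 between HOXA7 and HOXA9, had fold enrichment 5.66 and 4.56 in the control libraries. It adjoins a region at chr7:27160269-27161111 that was present in all 4 libraries. Region widths are those of the merged peaks, not of the part shared by both libraries. At the group 1 side of HOXA a gained region of 898 bp at chr7:27099514-27100411 overlapped the noncoding RNA gene HOTAIRM1. Its fold enrichment was 7.45 and 3.30 in the KO libraries, and only the peak of KO replicate 1 reached the end of HOXA2. This gained region adjoins one at chr7:27098567-27099415 that was present in both KO libraries and control replicate 2. HOXA2, a gene of hindbrain and pharyngeal arch patterning, had 2097 and 902 covered bp in the KO clone and 212 and 974 bp in the control clone, which overlap. At the other side of HOXA, a gained region of 302 bp in HOTTIP at chr7:27201015-27201316 had 4.35 and 3.65 in the KO libraries, which shared 132 bp of it. This region adjoins the one at chr7:27200310-27200972, which was present in both control libraries and KO replicate 2.

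In HOXB the gained region was 497 bp in HOXB-AS3 at chr17:48594871-48595367, with fold enrichment 2.78 and 3.08 in the KO libraries, among the weakest peaks of their lists (percentile 1.34 and 4.13). In HOXC it was 690 bp at chr12:54033433-54034122, with 3.92 and 6.84 in the KO libraries, inside the HOXC4 and HOXC5 spans. The KO libraries shared 184 bp of it, and only the peak of KO replicate 2 lay over the microRNA gene MIR615. The gained HOXC region adjoins one at chr12:54033021-54033349, present in KO replicate 2 (8.17) and control replicate 2 (5.12). Restricting the lists to peaks with a -log10 q of at least 10 left 0 gained regions. With peaks joined over gaps of up to 500 bp, 0 lost and 1 gained region were counted.

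The HOX clusters also hold microRNA genes, 8 of which are in the RefSeq set. The mature forms shown are those of the families classically tied to these clusters and of MIR615, in the gained HOXC region; they come from RefSeq on GRCh38.p14, written 5′ to 3′, with the seed, bases 2 to 8, in capitals.
hsa-miR-196a-5p (chr17:48632532-48632553, minus strand): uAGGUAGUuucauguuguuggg
hsa-miR-196b-5p (chr7:27169528-27169549, minus strand): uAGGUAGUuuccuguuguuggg
hsa-miR-10a-5p (chr17:48579904-48579926, minus strand): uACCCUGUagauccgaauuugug
hsa-miR-615-3p (chr12:54034010-54034031, plus strand): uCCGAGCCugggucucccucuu
miR-196a and miR-196b share the seed AGGUAGU, and miR-196a is made by 2 genes, in HOXB and HOXC. The MIR615 hairpin lay in an H3K27ac peak in 1 library, KO replicate 2, and that of MIR7704 at HOXD1 in 2 libraries. The hairpins of MIR196B, MIR10A, MIR196A1, MIR3185, MIR196A2 and MIR10B lay in none. Within 5 kb of MIR10A, KO libraries had 2364 and 3575 covered bp and control libraries 3294 and 2594 bp, and within 5 kb of MIR196B 3254 and 3115 bp in KO libraries and 3016 and 3221 bp in control libraries. Both sets overlap between the clones.

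FOS peaks within 100 kb of a cluster numbered 13 in both libraries, 5 at HOXA, 7 at HOXB, 1 at HOXC and 0 at HOXD. Of these, 9 overlapped H3K27ac in all 4 libraries and 3 in none. Only 4 lay inside a cluster, and 4 of 38 members had a FOS summit in their window in both libraries, where 38.7% of protein-coding genes did. In HOXA3 they lay at chr7:27111011-27111418, with fold enrichment 4.80 and 4.57 in the FOS libraries, and at chr7:27135960-27136543, with 5.99 and 6.50, a site that also falls in the HOXA5 window. HOXB9 had one at chr17:48624918-48625224 (6.13 and 5.68), in its acetylated stretch.

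The HOXC10 window held a FOS peak at chr12:53985026-53985453, in HOXC-AS3 and 45 bp outside the HOXC10 span, with fold enrichment 5.20 and 5.63, and no H3K27ac peak overlapped it. The strongest FOS peak near any cluster was outside, 53.3 kb from HOXA2 (9.05 and 11.1). All 6 FOS peaks on the HOXB1 side of HOXB lay 22.5 to 71.5 kb from the cluster, and 5 of them overlapped H3K27ac in all 4 libraries. With a -log10 q of at least 10 required, 2 FOS peaks were counted in both libraries, and within 50 kb 8 were.

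MYRF peaks of CFPAC1 within 100 kb of a cluster numbered 3 in both libraries, all at HOXB and each overlapping H3K27ac in all 4 libraries of both clones. The strongest in replicate 1 lay in HOXB6 at chr17:48601431-48602131, inside the long acetylated stretch, with fold enrichment 6.83 and 5.67. The same place held a MYRF peak in both HPAF2 libraries (chr17:48601491-48601887, 5.32 and 4.63), and no FOS peak. A second CFPAC1 peak at chr17:48603865-48604223 (3.26 and 5.16) also lay in HOXB6 and fell in the HOXB7 window. HOXB6 and HOXB7 were thus 2 of 38 members with a CFPAC1 MYRF summit in both libraries, where 7.91% of protein-coding genes had one.

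At the 2 CFPAC1 MYRF sites in HOXB6, H3K27ac covered all 2000 bp around the summits in both KO libraries and in both control libraries, the most this window can show. The strongest H3K27ac peak there stood at percentile 97.1 and 99.2 of its list in the KO libraries, against 94.1 and 90.6 in the control libraries. The third CFPAC1 peak, at chr17:48483439-48483889, lay 44.9 kb from HOXB1 and overlapped a FOS peak in both libraries. Its fold enrichment was 5.02 and 6.53, the highest of the 3 in replicate 2. Around its summits H3K27ac covered 2000 and 2000 bp in KO libraries against 2000 and 1809 bp in control libraries. No site of the 3 was without H3K27ac in the KO clone.

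HPAF2 MYRF peaks within 100 kb numbered 5 in both libraries, 2 at HOXA and 1 at each other cluster, with 4 more in a single library. HOXA3 and HOXB6 were the 2 of 38 members with such a summit in both libraries in their window, where 7.37% of protein-coding genes had one. The HOXA3 peak (chr7:27115087-27115594, 4.70 and 5.27) lay in the 13.3 kb acetylated stretch of CFPAC1 and had no CFPAC1 MYRF partner. The strongest lay 79.7 kb beyond HOXC4 at chr12:54135309-54136035, with fold enrichment 14.8 and 16.7, and 22.5 kb from SMUG1, a uracil DNA glycosylase gene. The HOXD peak lay 78.5 kb beyond HOXD1 beside MTX2, a mitochondrial import gene. One single-library HPAF2 peak (chr12:54033392-54033713, 2.97) overlapped the gained HOXC region. H3K27ac was not mapped in HPAF2, and the 2 lines differed in medium.

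**Figure D5:**
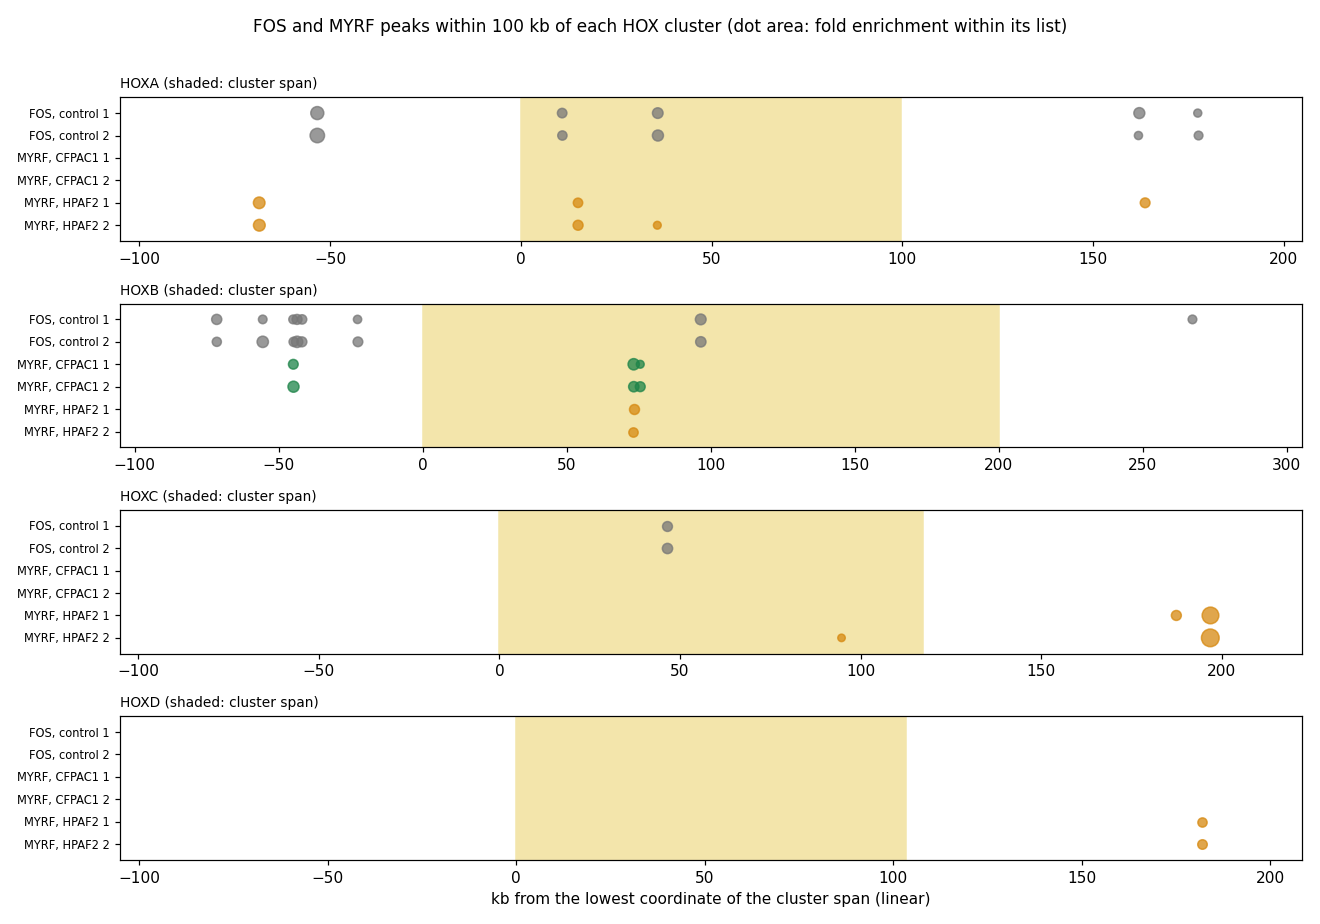
FOS and MYRF peaks within 100 kb of each cluster, 1 row per library, in kb from the lowest coordinate of the span (linear, cluster shaded); dot area is fold enrichment within its own list. Both MYRF lines have a peak at the same place inside HOXB, and HOXD has no FOS peak.

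Genes that work with the HOX factors were compared by lists. Among the cofactors, which bind DNA together with HOX proteins, MEIS3 and PKNOX2 had no peak. MEIS2 had 12270 and 14017 covered bp in KO libraries and 13484 and 12073 bp in control libraries, which overlap. PBX4 had 1 gained region, of 415 bp. MEIS2 and PBX4 each had a MYRF summit in both HPAF2 libraries. A lost region was in the window of 10.2% and a gained region of 6.54% of all protein-coding genes.

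Of 6 ParaHox genes, the sister family of HOX, 1 was lower in the KO clone (GSX2, 0 and 0 bp in KO libraries against 306 and 365 bp in control libraries, with 1 lost region), 2 overlapped (PDX1 and CDX2) and 3 had no peak (GSX1, CDX1 and CDX4). Over all protein-coding genes with a peak, 23.5% were lower. PDX1, a pancreas master regulator, had 4353 and 4851 bp in KO libraries and 4740 and 5103 bp in control libraries. CDX2, an intestinal regulator, had 2 and 3 MYRF summits in HPAF2 and none in CFPAC1.

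Of 15 Polycomb and Trithorax genes, which hold HOX genes silent or active, 5 were lower in both KO libraries, 10 overlapped and 0 were higher, where 23.5% of all protein-coding genes with a peak were lower and 11.3% higher. The 5, named after their values were seen, were EZH1, SUZ12, RING1, CBX2 and MEN1. KDM6A, a demethylase of lysine 27, had 2 gained regions. Of 11 genes that flank the clusters, 2 were higher in both KO libraries (SKAP2 and SMUG1), 6 overlapped, 0 were lower and 3 had no peak (EVX1, EVX2 and PRAC1), beside the same 11.3% higher over all genes. SKAP1, next to HOXB1, had 3 lost and 3 gained regions and MYRF summits in both lines. HIBADH and MTX2 had a MYRF summit in both HPAF2 libraries.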

How the data were processed

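ChIP-seq peak lists of 10 libraries were used, on GRCh38. An HPAF2 input sample was not analysed here. The submitters' processing notes name MACS2 2.1.0.20150731, SAMtools, Bowtie2 2.2.6 and Trimmomatic 0.38. The deposited lists give each peak a fold enrichment (a ratio over local background), a -log10 p, a -log10 q and a score, all the authors' own. The control used for calling is not given in the sources used here, so fold was used only within a list. Lists were compared by presence and covered length. Depth is unknown, and intervals that need it were not given.

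Gene spans and start sites came from RefSeq GRCh38.p14. Peaks overlapping by at least 1 bp were merged. Clusters ran from the lowest to the highest member coordinate. Clones were compared by two-sided exact permutation tests, and lists by counts beside the share over all genes. Python 3.11.15, pandas 2.3.3 and numpy 2.4.6 were used; bedtools 2.31.1 gave the same covered length in 20033 windows, with 0 that differed. Named genes were, per cluster, up to 4 with the largest difference in covered bp and up to 2 with the strongest H3K27ac peak, and those with a FOS or MYRF peak. From the lists, genes with a lost or gained region or a MYRF peak were named, except that some results are not reported here. Alternatives changed the window, the q threshold, the overlap, the joining of peaks, the distance and the libraries. The members and lists were chosen with earlier results of these data known.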

Additional observations from a re-analysis of the deposited data

How the results depend on the processing

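Over 13 results, 87 alternative values were computed. Of these, 56 kept their direction or stayed within 1.5 times of the reported count, 25 moved further and 6 turned sign. For the covered share, KO minus control, extending the spans by 5 kb gave 0.196 for HOXA, and a -log10 q of at least 10 gave 0.115 for HOXD. Leaving out one library gave -1.72 to 0.809 for HOXA, -1.65 to 3.56 for HOXB, 0.236 to 0.961 for HOXC and -1.59 to 0.857 for HOXD. It gave 3 to 6 lost and 5 to 13 gained regions, 9 to 15 members higher and 5 to 9 lower, since one library then stands for its clone. Gene spans with no extension gave 0 lost and 1 gained region, 14 members with a summit in both KO and 13 in both control libraries, and 2 members higher. With 10 kb windows 1 member was lower. Joining peaks over 500 bp gave 0 lost and 1 gained region, and a -log10 q of at least 10 gave 0 gained regions, 2 FOS and 3 HPAF2 MYRF peaks. Within 50 kb there were 8 FOS and 2 HPAF2 MYRF peaks. The cause of these moves was not tested beyond the smaller windows, lists and distances themselves. With the replicate number as a block the differences stayed at -0.455, 0.955, 0.599 and -0.367, with exact sign-flip p of 1, 1, 0.5 and 0.5, the smallest possible being 0.5; the libraries share only a number. Unknown depth limits every statement on an absent peak.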

Other observations

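KMT2A, the methyltransferase that keeps HOX genes active, had 12 and 13 MYRF summits in its window in the CFPAC1 libraries and 1 and 1 in the HPAF2 libraries. Their fold enrichment in CFPAC1 lay between 3.51 and 6.69, and none of the 12 and 13 peaks overlapped an H3K27ac peak of any library. DYNC1H1, a dynein heavy chain gene, had 43 and 33 summits in CFPAC1 and 2 and 7 in HPAF2. These genes were picked after their values were seen, and the source of the difference was not tested.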
